A study of Homo sapiens with 6 samples.

Results

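The genes described here encode the subunits of the 5 complexes of oxidative phosphorylation that are carried by nuclear chromosomes. The rule that takes them uses gene type and symbol and no measured value: protein coding genes whose symbols follow the series used for subunits of complex I (NDUF), complex II (SDH), complex III (UQCR and CYC1), complex IV (COX) and complex V (ATP5), with assembly factors left out. The rule took 87 of the 58735 genes in the deposited table. Of these, 36 were counted with complex I, 4 with complex II, 10 with complex III, 16 with complex IV and 21 with complex V. NDUFA4 was counted with complex IV, where its protein is now placed. The name rule also takes a retrocopy (UQCRHL), a relative that is no structural subunit (ATP5S, now named DMAC2L), a readthrough gene (ATP5MF-PTCD1) and a near copy (ATP5MGL), and it leaves out NDUFAB1, NDUFA4L2, COX4I2, COX8C and cytochrome c (CYCS).

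RNA was sequenced from T84 cells, an established line from a human colorectal cancer, grown in serum-containing DMEM/F12 medium. The titles give 3 libraries with a control short hairpin (shControl, genotype WT) and 3 with a hairpin against ACSL4 (shACSL4, genotype Acsl4 knockdown by its characteristics, where the series text says knockout). The sources used here do not give how the hairpins were delivered, how many were used or whether a line is 1 clone, and no treatment or time is labelled. Nothing in the labels says that the libraries of 1 group are separate cultures, so that the p-values measure only how these samples spread, and that spread may be technical.

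The respiratory chain passes electrons from NADH (through complex I) and from succinate (through complex II) to ubiquinone, then through complex III and cytochrome c to complex IV, which reduces oxygen. Complexes I, III and IV pump protons across the inner mitochondrial membrane, and complex V, the ATP synthase, uses the returning protons to make ATP. Most subunits are encoded in the nucleus, made in the cytosol and imported, while a small core is encoded by mitochondrial DNA, so that the complexes need products of both genomes.

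ACSL4, which activates long-chain polyunsaturated fatty acids and is the targeted gene, was at 75.5, 72.2 and 72.0 CPM (counts scaled to a common library size) in the shControl libraries and at 10.3, 9.12 and 11.1 CPM in the shACSL4 libraries. These and all later lists of 3 values are in the order of the replicate numbers, and the library sizes behind CPM were scaled by TMM. Libraries held between 14740383 and 17620630 counts. All 8 epithelial markers looked at were detected in every library, with a summed level of 5688 to 6837 CPM in shControl and 6853 to 8182 CPM in shACSL4. Of 10 markers of other cell types, 2 to 4 were at 0 in each library (CD3E and S100B in all 6), and their sum was 18.01 to 30.3 CPM in shControl and 4.73 to 7.78 CPM in shACSL4, most of it LYZ. Their part in the results was not tested. In a bulk sample, fewer cells of a kind and less RNA per cell cannot be told apart.

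Of the nuclear-encoded subunits, more fell than rose in shACSL4 against shControl, by modest amounts. Of the 87 genes, 82 had enough counts to be tested, and 39 of them fell and 7 rose in edgeR's quasi-likelihood test (Benjamini-Hochberg adjusted p under 0.05 over all genes tested). That is 47.6% of the tested subunits called lower and 8.54% called higher. Over all 15694 genes tested, 23.1% were called lower, 24.0% higher and 47.2% in either direction. The subunits' share of falls lies above this background and their share of rises below it. The fold change was negative for 65 of the 82 and positive for 17. The median log2 fold change of the 82 was -0.27, beside 0.01 over all genes tested and 0.00 over tested protein coding genes.

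The called falls ran from -1.32 to -0.24 and the called rises from 0.32 to 0.73 on the log2 scale, and 1 subunit, NDUFV2, lay beyond a change of 1. The groups did not overlap for 34 of the 39 genes called lower and for all 7 called higher. Across all 82 tested subunits, 39 lay wholly lower and 9 wholly higher in shACSL4, where over all genes tested 26.8% lay wholly lower, 28.3% wholly higher and 55.1% either. The summed level of the 87 genes was 7788, 8713 and 7758 CPM in the shControl libraries and 6509, 6489 and 7422 CPM in the shACSL4 libraries (8086 ± 543 against 6807 ± 533, SD, n = 3). The 3 shACSL4 sums all lie under the 3 shControl sums, but shACSL4 replicate 3 is nearer to the controls than to the other shACSL4 libraries.

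That library stood apart from its group across the subunits. Relative to the shControl mean of each gene, the median subunit was at -0.32, -0.33 and -0.08 on the log2(CPM + 0.5) scale in the shACSL4 libraries and at -0.05, 0.10 and -0.04 in the shControl libraries. shACSL4 replicate 3 was the highest library of its group for 69 of the 82 tested subunits, and shControl replicate 2 was the highest of its own for 63. The same libraries stood out among cytosolic ribosomal proteins, whose median was -0.40, -0.36 and -0.13 in the shACSL4 libraries and -0.06, 0.15 and -0.08 in the shControl libraries. Without shACSL4 replicate 3, 44 subunits were called lower and 8 higher, and without both libraries 45 were called lower and 9 higher. Without shACSL4 replicate 1 or replicate 2 in turn, 25 were called lower each time, and without shControl replicate 1 the number called higher dropped to 4.

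**Figure D1:**
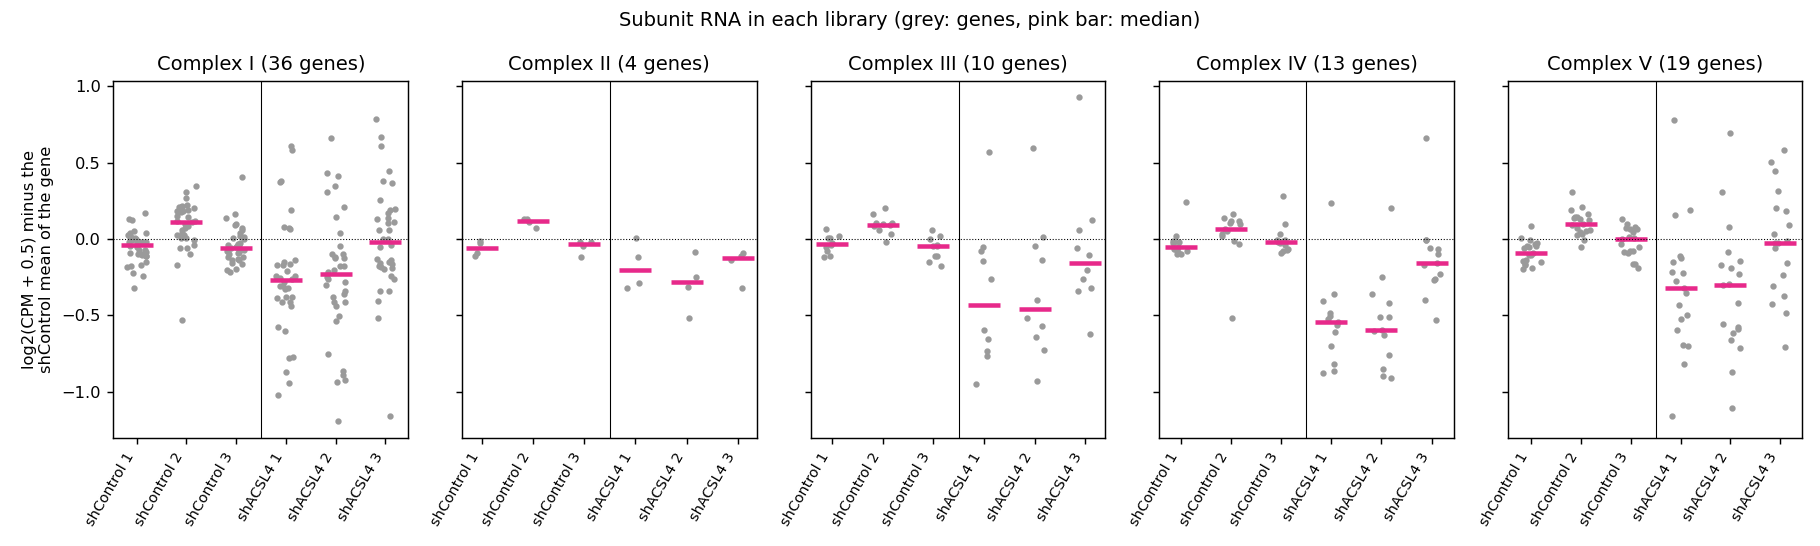
Level of each tested subunit in each of the 6 libraries, as log2(CPM + 0.5) minus the mean of the shControl libraries for that gene (vertical axis, log2 units), by complex (panels). Grey points are genes and pink bars their median; in complex IV the median is at -0.54 and -0.59 in shACSL4 replicates 1 and 2 and at -0.15 in replicate 3.

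The scaling of the libraries bears on these counts. With library size alone in place of TMM, the median of all genes tested moved from 0.01 to 0.13, and 20 subunits were called lower (24.4%) and 10 higher (12.2%). Under that scaling 2561 of all genes were called lower (16.3%) and 4878 higher (31.1%), against 3631 lower and 3769 higher with TMM. The median subunit was then at -0.15, which remains below the median of all genes.

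By complex, the share called lower ran from 30.6% in complex I to 92.3% in complex IV, cytochrome c oxidase. Complex IV had 12 of 13 tested subunits called lower and none higher (median -0.39). Complex III had 6 of 10 called lower and 1 higher (median -0.35), and complex II had 2 of 4 lower and none higher (median -0.20). In complexes II and IV no subunit was higher at an unadjusted p under 0.05 in edgeR either, and DESeq2 and limma-voom called none higher. Complex V had 8 of 19 lower and 2 higher (median -0.20). Complex I had 11 of 36 lower and 4 higher (median -0.18). The difference between complexes was not tested, and their order moved with the processing. Relative to neighbouring genes 80% of complex III and 76.9% of complex IV were called lower, and with the gene length trend removed 75% of complex II and 61.5% of complex IV. Each complex lies above the background of 23.1% with TMM and all 6 libraries. Complex I does not with library size alone (13.9% against 16.3% of all genes) or with the transcript length and GC trend removed (11.1% against 23.3%). It also lies under the background without shControl replicate 2, where 7 of its 36 were called lower beside 22.3% of all genes. Against a fold of 1.2, complex I had 13.9% and complex II 0%, where all genes had 14.1%.

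**Figure D2:**
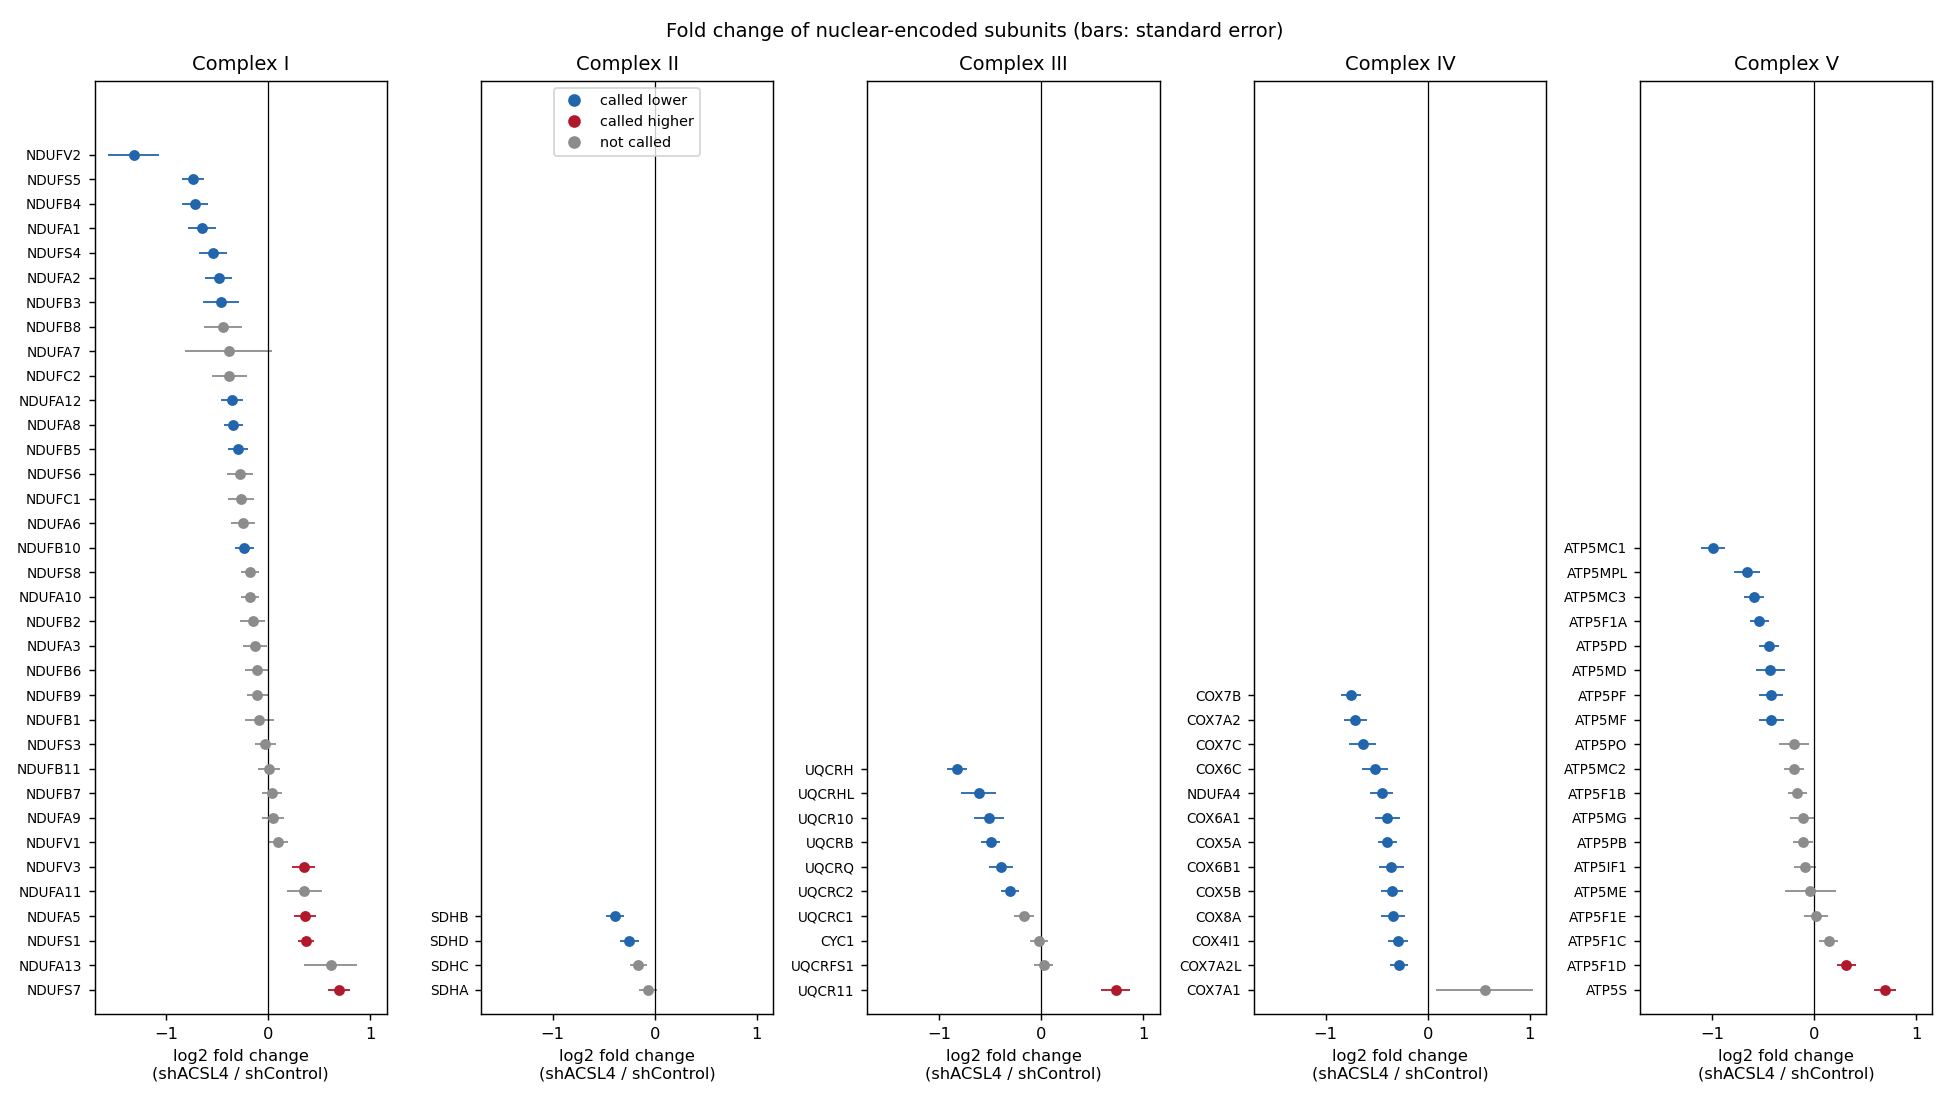
log2 fold change of shACSL4 over shControl (horizontal axis) for 81 of the 82 tested subunits, by complex (panels), with bars of 1 standard error and 3 libraries per group. Blue genes were called lower, red genes higher and grey genes neither; 12 of 13 complex IV subunits are blue.

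Complex I, the NADH dehydrogenase, has 7 nuclear-encoded core subunits that carry its flavin, iron-sulfur clusters and ubiquinone site, and these did not share a direction. NDUFV2 fell, NDUFS1 and NDUFS7 rose, and the others were not called (median of the 7, -0.03). That is 14.3% called lower and 28.6% higher, beside 23.1% and 24.0% over all genes tested. With 7 genes these shares do not set the core apart from the background. NDUFV2, an iron-sulfur subunit of the NADH-oxidising arm (chr18:9102630-9134345), was at 6.72, 4.08 and 8.27 CPM in shControl and at 2.76, 2.39 and 2.47 CPM in shACSL4. Every shACSL4 library was lower, and the log2 fold change of -1.32 (SE 0.25, adjusted p = 0.000413) was the largest of any subunit in size. It is a low gene for a core subunit, at 2.33 ± 0.762 FPKM in shControl where its partner NDUFV1 was at 34.2 ± 5.05 FPKM (SD, n = 3). Of its exonic bases 28.4% overlap another annotated gene, and it has 1 named pseudogene. The median fold change of its 50 neighbouring tested genes was -0.39, and its call was kept relative to them.

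NDUFS1, the largest iron-sulfur subunit (chr2:206114817-206159603), was at 133, 134 and 134 CPM in shControl and at 174, 170 and 174 CPM in shACSL4. The libraries within each group lie close together, the groups do not overlap, and the gene rose by 0.37 on the log2 scale (SE 0.08, adjusted p = 0.0011). NDUFS7, which holds the last iron-sulfur cluster before ubiquinone (chr19:1383527-1395589), was at 20.2, 24.98 and 20.9 CPM in shControl and at 33.7, 35.0 and 38.2 CPM in shACSL4. It rose by 0.69 (SE 0.11, adjusted p = 6.7e-05) with no overlap between the groups, but 49.1% of its exonic bases overlap other annotated genes, so that the reads cannot be assigned with certainty. NDUFV1, the flavin subunit that first takes electrons from NADH, was at 171, 200 and 151 CPM in shControl and at 182, 191 and 186 CPM in shACSL4. Its groups overlap and it was not called (0.10, SE 0.10, adjusted p = 0.436). The core subunits NDUFS3 (-0.03) and NDUFS8 (-0.18) were not called.

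The 29 accessory subunits of complex I surround the core and are needed for its assembly or stability. Of these, 10 were called lower (34.5%) and 2 higher (6.90%), beside 23.1% and 24.0% over all genes tested (median -0.25). Their median transcript was 844 bases long, and 33.6% of tested coding genes under 1000 bases were called lower, a share near theirs. The largest falls were in NDUFS5 and NDUFB4. NDUFS5 (chr1:39026318-39034636) was at 111, 117 and 96.8 CPM in shControl and at 62.8, 56.3 and 75.5 CPM in shACSL4, a change of -0.74 (SE 0.11, adjusted p = 2.93e-05). NDUFB4 (chr3:120596309-120602500), a membrane-arm subunit, was at 95.8, 89.1 and 101 CPM in shControl and at 49.2, 50.05 and 75.1 CPM in shACSL4, a change of -0.72 (SE 0.13, adjusted p = 0.000243). For both genes the groups do not overlap, and shACSL4 replicate 3 is the highest of its group. Both have named pseudogenes in the annotation, 6 for NDUFS5 and 12 for NDUFB4, so that some of their reads may be split with these. The same limit holds for other genes called lower, among them COX6C (17 named pseudogenes), ATP5MC1, ATP5F1A and COX6B1 (7 each) and COX5B (6).

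The other 8 accessory subunits called lower were NDUFA1 (-0.65), NDUFS4 (-0.54), NDUFA2 (-0.49), NDUFB3 (-0.46), NDUFA12 (-0.36), NDUFA8 (-0.34), NDUFB5 (-0.30) and NDUFB10 (-0.24). Among them the groups overlap for NDUFB3 alone. NDUFB10 was the least secure, since its call (adjusted p = 0.0442) was lost with DESeq2 and with 11 other alternatives. The accessory subunits called higher were NDUFA5, at 37.1, 44.9 and 37.6 CPM in shControl and 45.3, 53.7 and 54.3 CPM in shACSL4 (0.36, SE 0.10, adjusted p = 0.00863), and NDUFV3, at 21.4, 27.9 and 23.5 CPM in shControl and 31.4, 29.98 and 31.2 CPM in shACSL4 (0.35, SE 0.11, adjusted p = 0.0161). Neither pair of groups overlaps, although NDUFA5 is separated only by 44.9 against 45.3 CPM and has 12 named pseudogenes. The 17 accessory subunits not called ranged from -0.44 (NDUFB8) to 0.61 (NDUFA13).

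Complex II, succinate dehydrogenase, is encoded wholly in the nucleus and links the citric acid cycle to the chain. SDHB, its iron-sulfur subunit (chr1:17018722-17054170), was at 79.2, 90.9 and 83.1 CPM in shControl and at 67.5, 58.7 and 67.2 CPM in shACSL4. It fell by 0.39 on the log2 scale (SE 0.09, adjusted p = 0.00205). SDHD, a membrane anchor (chr11:112086773-112120013), was at 99.9, 118 and 107 CPM in shControl and at 88.5, 86.9 and 98.1 CPM in shACSL4, a change of -0.25 (SE 0.09, adjusted p = 0.0322). The groups do not overlap for either gene, and for SDHD the gap is 99.9 against 98.1 CPM. Its call was lost in 7 alternatives: library size alone, a fold of 1.2, relative to neighbouring genes, the transcript length and GC trend, and without shControl replicate 2 or shACSL4 replicate 1 or 2. SDHA, the flavin subunit that oxidises succinate, was at 133, 148 and 124 CPM in shControl and at 136, 127 and 126 CPM in shACSL4 and was not called (-0.06, SE 0.09, adjusted p = 0.597). SDHC, the other anchor, had a fold change of -0.16 (adjusted p = 0.132) with groups that do not overlap.

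In complex III, neither of the 2 catalytic subunits was called with TMM. CYC1, the heme-bearing cytochrome c1, was at 219, 232 and 200 CPM in shControl and at 205, 210 and 226 CPM in shACSL4 (-0.02, SE 0.09, adjusted p = 0.857). UQCRFS1, the Rieske iron-sulfur protein, was at 112, 136 and 117 CPM in shControl and at 117, 122 and 132 CPM in shACSL4 (0.03, SE 0.09, adjusted p = 0.838). The groups overlap for both and neither was called. Both lie among genes with higher levels in shACSL4. Relative to the median of its 50 neighbouring tested genes (0.52), CYC1 was at -0.55 and called lower (adjusted p = 9.07e-05). Relative to its own neighbours (0.27), UQCRFS1 was at -0.25 and called lower (adjusted p = 0.0396). In that alternative 8 of the 10 complex III genes were called lower. Its p-values take the neighbouring median as exact and leave out its own spread, so that a call near the threshold such as UQCRFS1 is insecure.

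Of the 7 other complex III subunits, 5 fell and 1 rose. UQCRH, the hinge protein that bridges cytochrome c1 and cytochrome c (chr1:46303631-46316776), was at 182, 200 and 195 CPM in shControl and at 99.3, 100 and 125 CPM in shACSL4. The gap between the groups is wide compared with their spread, with a change of -0.83 (SE 0.10, adjusted p = 3.49e-06). Its retrocopy UQCRHL was at 8.98, 9.10 and 7.67 CPM in shControl and at 4.94, 5.30 and 6.64 CPM in shACSL4 (-0.61, SE 0.17, adjusted p = 0.00784). The 2 sequences are near copies, and the sources used here do not say how shared reads were counted. The UQCRHL counts may come from UQCRH transcripts. UQCR10 (chr22:29767369-29770413) was at 32.0, 32.5 and 34.4 CPM in shControl and at 19.2, 19.7 and 30.6 CPM in shACSL4 (-0.51, SE 0.14, adjusted p = 0.00777). Its shACSL4 replicate 3 lies just under the controls.

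UQCRB (-0.50), UQCRQ (-0.39) and the core protein UQCRC2 (-0.31) were also called lower, and UQCRC1 was not (-0.17, adjusted p = 0.17). UQCR11, the smallest subunit (chr19:1597172-1605490), went the other way. It was at 10.3, 11.1 and 9.48 CPM in shControl and at 15.5, 15.8 and 20.1 CPM in shACSL4, with no overlap and a change of 0.73 (SE 0.14, adjusted p = 0.000384). The median fold change of its 50 neighbouring tested genes was 0.44, and relative to them UQCR11 was at 0.29 and was not called.

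Complex IV, cytochrome c oxidase, has its catalytic core encoded by mitochondrial DNA, and the nuclear genes give the surrounding subunits. Its summed level was 1614 ± 87.8 CPM in shControl and 1202 ± 194 CPM in shACSL4 (SD, n = 3), from 1085, 1096 and 1426 CPM in the 3 shACSL4 libraries. COX7B (chrX:77899438-77907373) was at 139, 142 and 130 CPM in shControl and at 74.5, 75.6 and 94.8 CPM in shACSL4, a change of -0.75 (SE 0.10, adjusted p = 1.08e-05). COX7A2, the widely expressed form of subunit 7A (chr6:75237675-75250323), was at 85.9, 88.4 and 86.7 CPM in shControl and at 47.6, 46.5 and 65.8 CPM in shACSL4, a change of -0.71 (SE 0.11, adjusted p = 7.88e-05). COX7C (chr5:86617904-86620962) was at 114, 114 and 118 CPM in shControl and at 65.0, 61.1 and 95.9 CPM in shACSL4, a change of -0.64 (SE 0.13, adjusted p = 0.000629). For all of these the shControl libraries lie close together, the groups do not overlap and shACSL4 replicate 3 is the nearest to the controls.

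COX4I1, COX5A and COX5B were all called lower. COX4I1 was at 281, 324 and 278 CPM in shControl and at 221, 228 and 274 CPM in shACSL4 (-0.29, SE 0.10, adjusted p = 0.0253). COX5A was at 186, 223 and 190 CPM in shControl and at 142, 149 and 165 CPM in shACSL4 (-0.39, SE 0.09, adjusted p = 0.0026). COX5B was at 124, 129 and 125 CPM in shControl and at 88.6, 88.0 and 120 CPM in shACSL4 (-0.35, SE 0.11, adjusted p = 0.0146). The groups do not overlap for these genes, but the calls of COX4I1 and COX5B were each lost in 6 of 17 alternatives, among them those without shACSL4 replicate 1 or 2. The other calls were COX6C (-0.51), NDUFA4 (-0.45), COX6A1 (-0.39), COX6B1 (-0.36), COX8A (-0.34) and COX7A2L (-0.28), of which COX6A1, COX6B1 and COX8A have groups that overlap. Without shACSL4 replicate 1 there were 6 calls in complex IV, and 7 without shACSL4 replicate 2.

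Forms of complex IV subunits known from muscle or testis were near or under the limit of detection. COX7A1, the muscle form of subunit 7A, was at 0.773, 0.251 and 0.807 CPM in shControl and 0.770, 0.741 and 1.202 CPM in shACSL4 and was not called (0.56, SE 0.47, adjusted p = 0.351). COX6B2 was not tested: its shControl libraries held 2, 3 and 0 counts, and its shACSL4 libraries 9, 13 and 3. COX7B2 and COX6A2 had no count in any library, where 3 counts correspond to between 0.171 and 0.202 CPM. Such limits cover counting error only.

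In complex V, the ATP synthase, falls were called for 2 of 3 genes of the proton ring, 3 of 5 other membrane subunits, 2 of 4 of the peripheral stalk and 1 of 5 of the head and central stalk, with no test between them. Of the last, 1 fell, 1 rose and 3 were not called. Over all genes tested, 23.1% were called lower and 24.0% higher. With 3 to 5 genes in each part, these counts do not separate the parts from that background. ATP5F1A, the alpha subunit (chr18:46080248-46104334), was at 558, 639 and 541 CPM in shControl and at 402, 384 and 412 CPM in shACSL4. The groups are well apart, with a change of -0.54 (SE 0.09, adjusted p = 0.00016). ATP5F1B, the catalytic beta subunit that pairs with it in the head, was at 1096 ± 92.4 CPM in shControl and 979.5 ± 5.78 CPM in shACSL4 (SD, n = 3) and was not called (-0.16, SE 0.09, adjusted p = 0.171), although its groups do not overlap. ATP5F1D, the delta subunit of the central stalk (chr19:1241746-1244826), was at 82.8, 97.5 and 85.4 CPM in shControl and at 101, 109 and 121 CPM in shACSL4 (0.32, SE 0.09, adjusted p = 0.0105). No library of the groups overlaps, but the median of its 50 neighbouring genes was 0.51, and relative to them ATP5F1D was at -0.19 (adjusted p = 0.104).

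The proton-carrying ring is built from 1 mature protein encoded by 3 genes, of which 2 fell. ATP5MC1 (chr17:48892765-48895871) was at 54.7, 63.5 and 63.3 CPM in shControl and at 26.8, 27.8 and 36.8 CPM in shACSL4, a change of -0.99 (SE 0.12, adjusted p = 3.04e-06). ATP5MC3 (chr2:175176258-175184607) was at 162, 163 and 165 CPM in shControl and at 101, 99.3 and 126 CPM in shACSL4, a change of -0.59 (SE 0.10, adjusted p = 0.000102). The groups do not overlap for either gene, and both calls were kept in every alternative. ATP5MC2 was at 108, 121 and 120 CPM in shControl and at 91.1, 94.97 and 119 CPM in shACSL4 and was not called (-0.20, SE 0.10, adjusted p = 0.127). Whether ATP5MC2 differs in its change from the other ring genes was not tested.

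In the rest of the membrane part, ATP5MPL (chr14:103912288-103928269), a small proteolipid, was at 55.1, 65.9 and 65.2 CPM in shControl and at 34.8, 33.6 and 49.97 CPM in shACSL4. It fell by 0.65 on the log2 scale (SE 0.13, adjusted p = 0.000527), with groups that do not overlap. ATP5MD (-0.43) and ATP5MF (-0.42) were called lower, and ATP5MG and ATP5ME were not. The groups of ATP5MD overlap, and its call was lost in 7 of 17 alternatives. In the peripheral stalk, which holds the head still, ATP5PD (-0.44) and ATP5PF (-0.42) were called lower, and ATP5PO and ATP5PB were not. ATP5IF1, the inhibitor of ATP hydrolysis by the enzyme, was at 51.5, 53.9 and 52.7 CPM in shControl and at 43.5, 44.9 and 60.03 CPM in shACSL4, on both sides of the controls (-0.09, SE 0.11, adjusted p = 0.529). ATP5S, which the name rule takes but which is no structural subunit, was at 19.4, 23.0 and 24.4 CPM in shControl and at 38.5, 36.2 and 33.5 CPM in shACSL4. It rose by 0.70 (SE 0.11, adjusted p = 6.66e-05) with no overlap, and it was the only gene called higher whose call was kept in all alternatives. ATP5MF-PTCD1 (4, 2 and 1 counts in shControl, 3, 1 and 6 in shACSL4) and ATP5MGL (1, 1 and 0 counts in shControl, none in shACSL4) were not tested.

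Levels of different subunits are set side by side in the deposited FPKM values, which are per gene length. Here that is the length of all annotated exons of the gene, which can be far from that of 1 transcript. It is 5871 bases at NDUFB5 (transcript 1141) and 10908 at ATP5F1A (transcript 5818), but 507 for both at COX8A. The order of the subunits and the medians by complex therefore depend in part on the annotation. ATP5F1B was the highest of all subunits in shControl, at 469 ± 42.0 FPKM (SD, n = 3), followed by COX8A at 245 ± 16.9 and NDUFS5 at 197 ± 20.4 FPKM. The lowest tested were NDUFA7 at 0.545 ± 0.0942, COX7A1 at 0.602 ± 0.306 and NDUFA13 at 0.816 ± 0.200 FPKM. The median subunit level by complex in shControl was 16.5 FPKM for complex I, 25.1 for complex II, 48.4 for complex III, 57.4 for complex IV and 23.5 for complex V. In shACSL4 the corresponding medians were 12.9, 20.5, 41.0, 36.55 and 15.8 FPKM. The order of the subunits by level was nearly the same in both groups (Spearman's rho 0.98 over 82 genes, as a description of libraries that share a gene length for each gene). NDUFA7 and NDUFA13 overlap other genes in 33.5% and 21.0% of their exonic bases, so that their low values are uncertain.

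**Figure D3:**
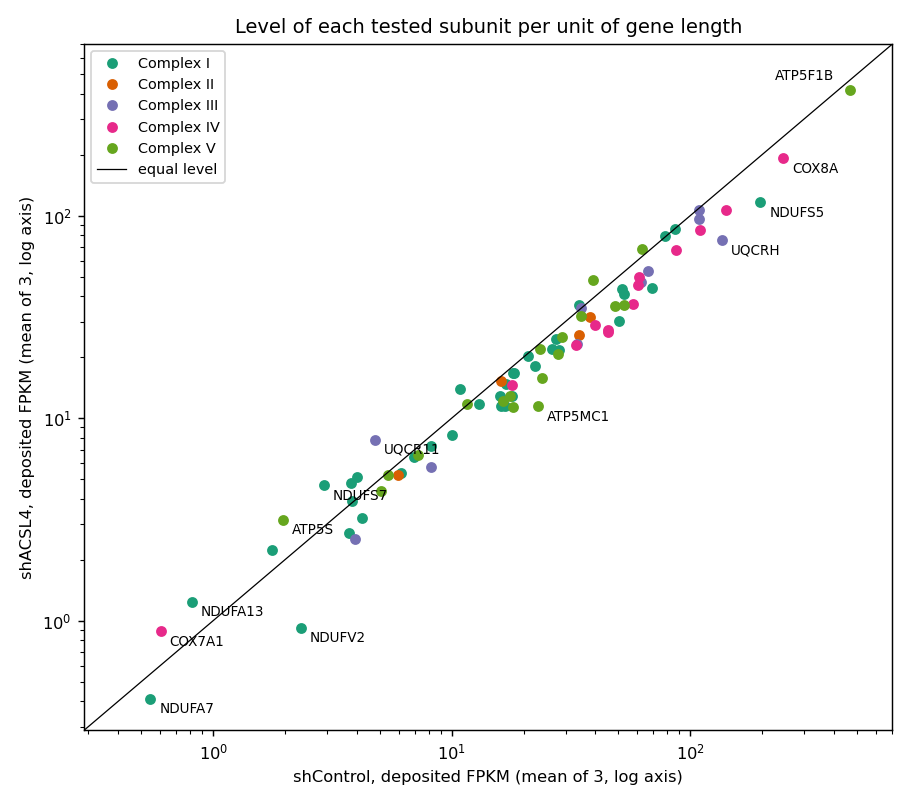
Mean deposited FPKM of each tested subunit in shControl (horizontal axis) and shACSL4 (vertical axis), both on log scales, with 3 libraries per group and colours for the complexes. The line marks equal levels; most subunits lie under it, ATP5F1B at 469 FPKM is the highest in shControl and NDUFV2 and ATP5MC1 are among those farthest under the line.

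Many genes of the respiratory chain are known to carry sites for the nuclear respiratory factor NRF1, for GABPA (an ETS family factor also called nuclear respiratory factor 2) and for YY1 near their start sites. The promoter window of RefSeq (250 bases before to 50 after the start, build GRCh38.p14) was found for 69 of the 87 genes, 66 by symbol and 3 by an older symbol. The ETS motif CCGGAAGT, searched on both strands, was in 11 of the 69 windows (15.9%) and in 4.14% of 35116 promoters. It was in 9 of the 32 windows of genes called lower (28.1%) and in 2 of the other 37 (5.41%). Those 2 windows belong to UQCR11, called higher (0.73), and NDUFA13, not called (0.61). The other 37 include COX6B2, COX7B2 and COX6A2, which were not tested. The 35116 promoters were not filtered by gene type. The YY1 motif AAGATGGC was in 12 of 69 (17.4%, against 2.89% of all promoters), in 3 windows of genes called lower and in 9 of the others. The NRF1 consensus, a palindrome shown in capitals in the SDHD window printed here, was in 4 windows (5.80%, against 1.24%), the ERR motif TCAAGGTCA in 1 (1.45%, against 0.353%) and the hypoxia response motif ACGTG in 16 (23.2%, against 21.4%). A match describes these letters only and shows neither binding nor a cause of a change.

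The 6 windows of 120 bases before to 30 after the start are printed here because their genes stand for each complex and for both directions of change. All 6 hold a match, so they are not a fair sample of the windows searched. Capitals mark the matches, on either strand. UQCRH, COX5B, ATP5F1A and SDHD hold the ETS motif (COX5B in 2 places), SDHD also the NRF1 and ERR motifs, and SDHB and NDUFS7 the YY1 motif. The ERR motif overlaps none of the others in SDHD. NDUFS7 is the one gene of these that was called higher. The sequences are those of RefSeq, GRCh38.p14, written 5′ to 3′ along the gene's strand.
UQCRH promoter, chr1:46303578-46303727, plus strand: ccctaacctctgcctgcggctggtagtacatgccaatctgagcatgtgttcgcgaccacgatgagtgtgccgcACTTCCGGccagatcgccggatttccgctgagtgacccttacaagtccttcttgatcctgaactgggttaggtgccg
COX5B promoter, chr2:97645942-97646091, plus strand: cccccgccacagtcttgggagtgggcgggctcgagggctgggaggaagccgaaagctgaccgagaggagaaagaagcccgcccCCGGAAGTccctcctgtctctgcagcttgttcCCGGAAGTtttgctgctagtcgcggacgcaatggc
ATP5F1A promoter, chr18:46098267-46098416, minus strand: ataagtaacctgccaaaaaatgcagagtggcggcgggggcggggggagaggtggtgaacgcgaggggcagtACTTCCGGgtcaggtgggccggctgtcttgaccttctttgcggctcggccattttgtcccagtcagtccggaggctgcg
SDHD promoter, chr11:112086753-112086902, plus strand: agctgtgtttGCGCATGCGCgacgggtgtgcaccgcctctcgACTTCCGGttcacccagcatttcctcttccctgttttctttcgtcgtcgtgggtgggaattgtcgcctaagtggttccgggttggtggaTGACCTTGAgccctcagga
SDHB promoter, chr1:17054003-17054152, minus strand: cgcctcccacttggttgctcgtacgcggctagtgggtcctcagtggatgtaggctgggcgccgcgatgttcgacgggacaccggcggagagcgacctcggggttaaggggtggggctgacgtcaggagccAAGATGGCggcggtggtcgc
NDUFS7 promoter, chr19:1383787-1383936, plus strand: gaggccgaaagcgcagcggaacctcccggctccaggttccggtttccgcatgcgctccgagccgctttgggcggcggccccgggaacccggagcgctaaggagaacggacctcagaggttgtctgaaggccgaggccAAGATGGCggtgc

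The subunits on chromosome 19 differed from the rest in their median. Of 11 tested there, 1 was called lower and 3 higher (NDUFS7, UQCR11 and ATP5F1D), with a median log2 fold change of 0.32. All 911 tested coding genes of that chromosome had a median of 0.25, with 10.4% called lower and 41.8% higher. Of the 71 tested subunits on other chromosomes, 38 were called lower and 4 higher (median -0.30). After the median fold change of the 50 neighbouring genes was subtracted, 40 of all subunits were called lower and 4 higher. The neighbouring median was 0.50 at NDUFS7, which then stood at 0.20 and was not called. Among the falls, the neighbouring median was -0.41 at NDUFS5 and -0.38 at ATP5MC1, but 0.04 at COX7C and 0.10 at ATP5MC3. All of these falls kept their calls relative to neighbouring genes, while NDUFA4, COX8A, SDHD, NDUFA8 and ATP5PD lost theirs.

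Many of the subunits are short, and short transcripts as a class were lower in shACSL4. Of 39 tested subunits with an annotated transcript under 1000 bases, 24 were called lower and 1 higher (median -0.36). Tested coding genes of that length numbered 599, of which 33.6% were called lower and 12.5% higher (median -0.20). Of 43 subunits at 1000 bases or more, 15 were called lower and 6 higher (median -0.17), beside a median of 0.01 over 11977 coding genes of that length. The short coding genes also showed the library pattern of the subunits, with medians of -0.26, -0.25 and -0.03 in the shACSL4 libraries. With the trend over transcript length and GC content subtracted, an alternative chosen after seeing the data, 22 subunits were called lower (26.8%) and 10 higher (12.2%), beside 23.3% and 22.9% of all genes, and the median was -0.17. In that setting the share of falls is near the background. The part of transcript length in the falls was not tested further.

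**Figure D4:**
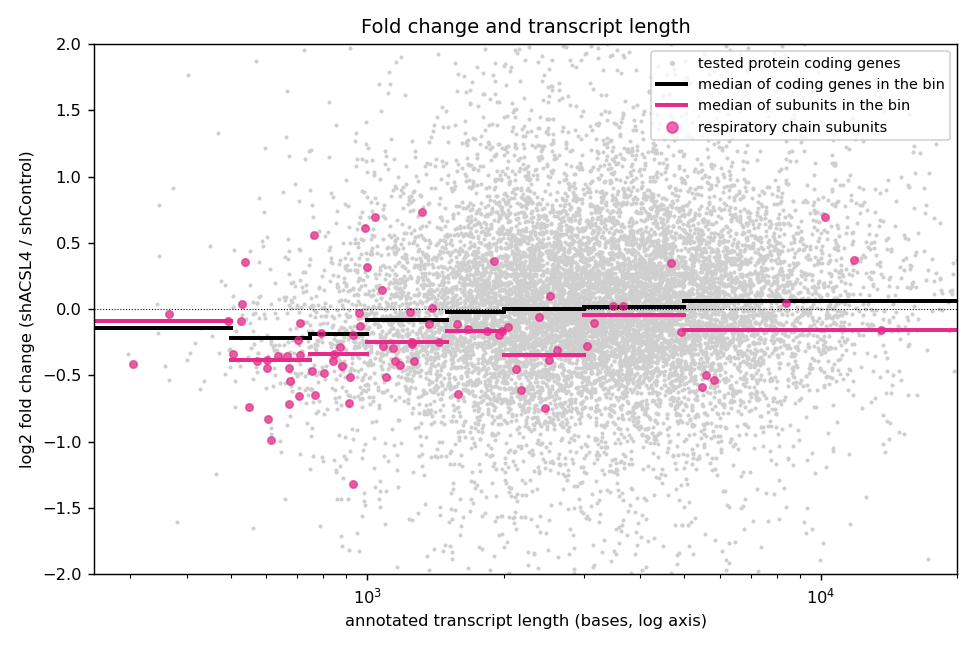
log2 fold change (vertical axis) against annotated transcript length in bases (horizontal axis, log scale) for tested coding genes (grey) and respiratory chain subunits (pink points), with medians in bins of length as bars. Between 500 and 750 bases the coding genes have a median of -0.22 and the 19 subunits a median of -0.39; a few genes beyond a change of 2 lie outside the axis.

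The 2 gene families most like the subunits in size and use were also looked at. Of 81 tested cytosolic ribosomal proteins, 45 were called lower and 2 higher (median -0.30). Of 76 tested mitochondrial ribosomal proteins, which make the mitochondrially encoded subunits, 24 were called lower and 6 higher (median -0.08). The subunits' median of -0.27 lies between these values and near that of the cytosolic ribosomal proteins. No test compared the families.

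The RNA of the partner subunits encoded by mitochondrial DNA was lower for some members. Of 13, 6 were called lower and none higher in edgeR's quasi-likelihood test (median -0.24). None was higher at an unadjusted p under 0.05, and DESeq2 and limma-voom called none higher. With library size alone, with the transcript length and GC trend removed or without shControl replicate 2, 1 was called higher, and 2 without both libraries named before. The largest fall was in MT-ATP8, at 24.7, 15.8 and 16.5 CPM in shControl and 14.4, 11.9 and 9.11 CPM in shACSL4 (-0.69, SE 0.18, adjusted p = 0.00485), with groups that do not overlap. MT-CO2, the copper-bearing subunit of complex IV, fell by 0.52. The complex IV partners MT-CO1 (-0.24) and MT-CO3 (0.16) were not called. The counts of overlapping mitochondrial genes such as MT-ATP8 and MT-ATP6 are uncertain. Mitochondrial genes took 8.13% to 9.91% of the counts in shControl and 7.30% to 8.43% in shACSL4. Without shACSL4 replicate 3, 2 of the 13 were called lower, and 3 without shControl replicate 1.

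Assembly factors build the complexes without staying in them. Together, 14 of 52 tested were called lower (26.9%, near the background of 23.1%) and 4 higher (7.69%, under the background of 24.0%), with a median of -0.08. Of 19 for complex I, 3 were called lower and 3 higher. DMAC1, a factor for the membrane arm, was at 16.1, 15.9 and 13.9 CPM in shControl and at 7.76, 8.67 and 9.05 CPM in shACSL4 (-0.85, SE 0.14, adjusted p = 7.41e-05). ACAD9, a complex I assembly factor related to acyl-CoA dehydrogenases, was at 45.6, 49.0 and 42.2 CPM in shControl and at 79.2, 74.3 and 78.2 CPM in shACSL4 (0.76, SE 0.09, adjusted p = 2.85e-06). The groups of both genes are far apart, in opposite directions.

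For complex IV, 7 of 20 tested factors were called lower and none higher in edgeR's test, in DESeq2 or in limma-voom, and 3 were higher at an unadjusted p under 0.05. That split turned with library size alone, where 3 were called lower and 4 higher. Rises were also called for 1 gene relative to neighbouring genes, with either length trend removed and without shACSL4 replicate 3, and for 2 without shControl replicate 2, with shACSL4 replicate 3 kept or not. The largest fall was in COA3, which acts on the newly made COX1 protein, at 78.7, 90.6 and 81.4 CPM in shControl and 48.5, 41.0 and 56.5 CPM in shACSL4 (-0.78, SE 0.11, adjusted p = 1.76e-05). Without shACSL4 replicate 2, 3 of the 20 were called lower. Of 6 factors for complex III, 2 were called lower, with UQCC2 the largest (-0.46), and 1 higher, BCS1L (0.41), which inserts the Rieske protein. SDHAF4 was the 1 of 4 called lower for complex II (-0.47), and ATPAF1 the 1 of 3 tested for complex V (-0.43).

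Carriers and subunits outside the name rule were described beside the members. CYCS, the mobile carrier between complexes III and IV, was at 594, 685 and 572 CPM in shControl and at 359, 347 and 373 CPM in shACSL4. It fell by 0.78 on the log2 scale (SE 0.09, adjusted p = 4.39e-06), and shACSL4 replicate 3 lies with the other two. NDUFAB1, an acyl carrier protein that is also a complex I subunit, fell by 0.47 (adjusted p = 0.00146). NDUFA4L2, a hypoxia-inducible relative of NDUFA4, held 12, 6 and 7 counts in the control libraries against 25, 39 and 33 in shACSL4 and was called higher (1.90, SE 0.39, adjusted p = 0.000685). Its counts are low in every library, so the size of the change is poorly known. COX4I2, the hypoxia-related form of COX4, held 2, 2 and 0 counts in the control libraries against 2, 0 and 0 in shACSL4 and was not tested.

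Of 13 regulators of mitochondrial gene expression, 3 were called lower (23.1%, as over all genes) and 2 higher (15.4%, under the 24.0% of all genes), so the list does not stand out from the background. PPARGC1A, a coactivator that drives mitochondrial biogenesis, was at 25.8, 22.9 and 30.4 CPM in shControl and at 16.7, 18.5 and 17.1 CPM in shACSL4 (-0.60, SE 0.12, adjusted p = 0.000689). TFAM, which packages and transcribes mitochondrial DNA, was at 84.6, 82.4 and 77.3 CPM in shControl and at 118, 113 and 116 CPM in shACSL4 (0.51, SE 0.08, adjusted p = 8.35e-05). The groups are separate for both, in opposite directions. PPARGC1B (-0.52) and CHCHD2 (-0.33) were also called lower and LRPPRC higher (0.25). NRF1, GABPA, YY1 and ESRRA, whose motifs were searched above, were not called, with fold changes from -0.15 to 0.10.

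**Figure D5:**
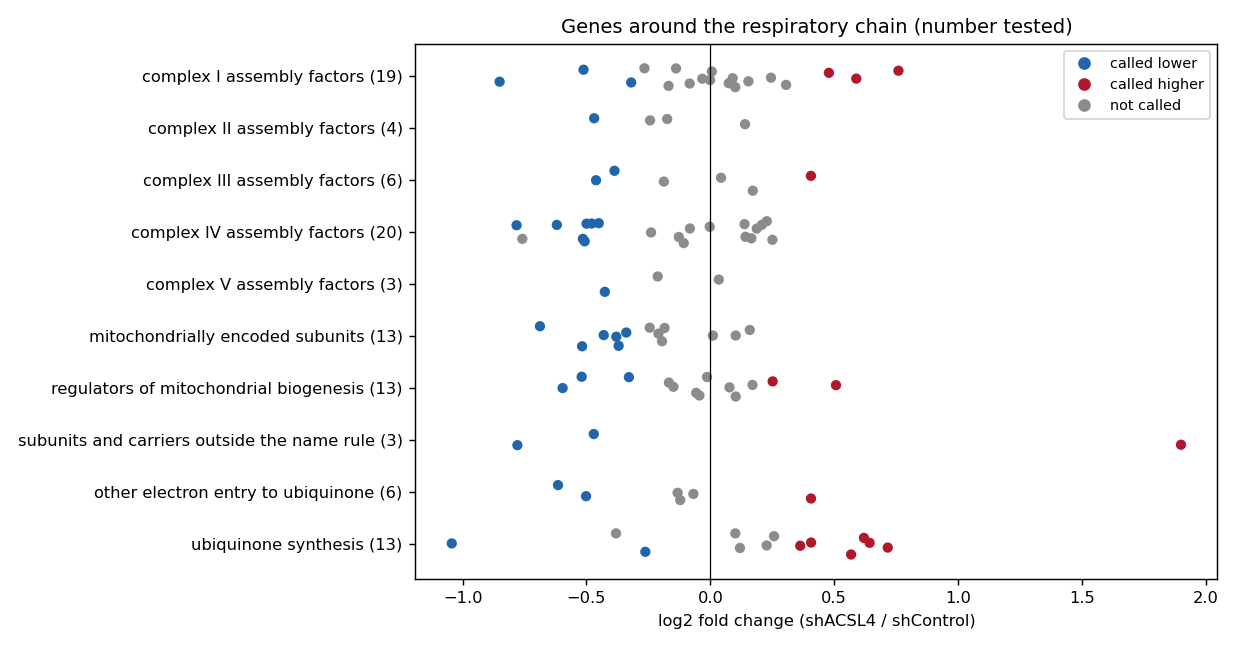
log2 fold change of shACSL4 over shControl (horizontal axis) for the tested genes of each list around the respiratory chain (lines, with the number tested), with blue for genes called lower, red for higher and grey for neither. Complex IV assembly factors have 7 blue genes and no red gene, and the gene far to the right is NDUFA4L2 at 1.90.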

How the data were processed

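RNA was sequenced in 6 libraries of T84 cells. The submitters' processing notes list CASAVA, HISAT2 and GRCh38 (hg38) with no version. How reads were counted, and whether strand was used, is not given in the sources used here. The authors deposited raw read counts per gene, FPKM values per library and a gene length in bases, per the file headers. Control columns carry the prefix NC and were taken as shControl, the only other group, by number. The table held 0 columns of other samples.

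Genes were kept by filterByExpr, libraries were scaled by TMM and groups were compared on the counts with edgeR 4.0.16 (quasi-likelihood test; limma 3.58.1, R 4.3.3), without covariates, with Benjamini-Hochberg adjustment over all 15694 genes tested. The log2 fold changes are of shACSL4 over shControl. CPM and FPKM are given as values or as mean ± SD. Transcript length and exonic overlap came from GENCODE release 29, and promoters from RefSeq. The main edgeR test was tried on simulated counts with known changes. The alternatives and the trends were not. Fold changes relative to neighbouring genes or to a trend keep the standard error of the main test. The subtracted value is taken as exact, so that their p-values leave out its spread.

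The genes and lists were chosen with earlier results of these data known. Values per library are given by a rule: per complex the 3 largest falls and 2 largest rises among called genes whose groups do not overlap, 12 subunits in any case, and from each list the called gene with the largest fall and rise. Other genes named were picked after their values were seen. Alternatives were scaling by median of ratios or by library size alone, DESeq2 1.42.0, no filter beyond 1 count, limma-voom, a replicate block, a test against a fold of 1.2, fold changes relative to 50 neighbouring genes, a gene length trend, and leaving out each library. The transcript length and GC trend, and leaving out 2 libraries together, were added after seeing the data. Replicate numbers did not pair the libraries: the deviations of same-numbered libraries correlated at 0.0623, -0.0013 and 0.0075. Of the 87 genes, 45 have named pseudogenes and 39 share no exonic base with another gene. The values of 1 tested subunit are counted in the totals and medians but are not reported here.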

Additional observations from a re-analysis of the deposited data

How the results depend on the processing

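Every count is of subunits called lower or higher among those tested, and the cause of each difference was not tested. With library size alone 20 were called lower (complexes I to V: 5, 1, 3, 6 and 5). Against a fold of 1.2, 17 were lower (5, 0, 3, 4 and 5) and 3 higher (complex I 1, complex V 1). With the transcript length and GC trend removed 22 were lower (complex I 4, IV 7, V 5). Relative to neighbouring genes 1 was lower in complex II, 4 were higher in all, 0 in complex III and 1 in complex V, and 8 subunits changed sign, among them UQCRFS1, now called lower (-0.25, adjusted p = 0.0396), and ATP5F1D, no longer called (-0.19, adjusted p = 0.104). Leaving out 1 library gave 25 to 44 lower (complex I 7 to 14, II 1 to 2, III 3 to 7, IV 6 to 12, V 6 to 10) and 4 to 9 higher (complex I 2 to 5, IV 0 to 1, V 1 to 3). Without shControl replicate 2 and shACSL4 replicate 3 together, 45 were lower and 9 higher. The median log2 fold change of the subunits stayed between -0.35 and -0.15 in all alternatives. DESeq2 gave 38 lower and 7 higher, limma-voom 39 and 7, and the replicate block 39 and 7 with a median of -0.27, so that pairing by number changed none of these counts. Of the 39 genes called lower 15 kept their call in every alternative, and of the 7 called higher 1 did. Of 1394 values of single subunits under the alternatives, 128 lost a call, 36 gained one and 2 changed both sign and call. Those 2 are ATP5F1D, which lost its call, and UQCRFS1, which gained one, both relative to neighbouring genes. The sign changed in 58 of them, in 20 genes, of which 1 (ATP5F1D) had been called. Calls with 3 libraries per group miss small changes, and at this depth 3 counts correspond to 0.171 to 0.202 CPM, the level that a count of 0 still allows.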

Other observations

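Ubiquinone is the lipid that takes electrons from complexes I and II. Of 13 tested genes of its synthesis, 6 were called higher and 2 lower by edgeR's quasi-likelihood test (median log2 fold change 0.26), beside 24.0% and 23.1% over all genes tested. COQ4, which is needed for the ubiquinone-making complex, was at 36.1, 40.0 and 41.2 CPM in the shControl libraries and at 56.8, 69.7 and 65.9 CPM in the shACSL4 libraries (0.72, SE 0.10, adjusted p = 1.57e-05). COQ8A, an atypical kinase of the same pathway, was at 140, 160 and 147 CPM in shControl and at 76.1, 65.8 and 75.1 CPM in shACSL4 (-1.04, SE 0.09, adjusted p = 1.05e-07). The groups are far apart for both genes, in opposite directions. Its relative COQ8B was called higher (0.64), as were COQ2 (0.62), COQ7 (0.57), PDSS2 (0.41) and COQ9 (0.36). COQ10B (-0.26, adjusted p = 0.0325) was the other gene called lower. The list had 1 call of a fall in place of 2 with library size alone, against a fold of 1.2, with the transcript length and GC trend removed, and without shControl replicate 2 or 3 or shACSL4 replicate 1 or 2.

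Of 6 tested genes of other enzymes that pass electrons to ubiquinone, 2 were called lower (33.3%) and 1 higher (16.7%), beside 23.1% and 24.0% over all genes tested. ETFB, a subunit of the electron transfer flavoprotein that serves fatty acid oxidation, was at 43.5, 51.4 and 40.3 CPM in shControl and at 27.7, 30.3 and 30.3 CPM in shACSL4 (-0.61, SE 0.10, adjusted p = 0.000132). ETFDH, the enzyme that takes electrons from that flavoprotein, was at 13.8, 18.6 and 14.7 CPM in shControl and at 21.9, 20.8 and 19.7 CPM in shACSL4 (0.41, SE 0.13, adjusted p = 0.0155). Neither pair of groups overlaps. SQOR, the sulfide oxidising enzyme, was called lower (-0.50), while ETFA, DHODH and GPD2 were not called. PRODH was not tested. Its control libraries held 1, 4 and 9 counts and its shACSL4 libraries 119, 7 and 10, so that a single library holds most of its counts.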
